A study of Homo sapiens with 18 samples.

Results

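CpG-poor promoters are described here as a class of start sites in the human genome (hg19) with few CpG dinucleotides around them. A transcription start site (TSS) of a protein-coding gene was taken as CpG-poor when the observed/expected CpG ratio of the TSS ± 500 bp was under 0.4. This ratio is the number of CpG dinucleotides times the length, divided by the product of the numbers of C and of G. Of 20048 distinct TSS on the autosomes and the X chromosome, 5854 (29.2%) were CpG-poor, and they belonged to 5869 genes. Another 2222 TSS had a ratio of 0.4 to 0.6 and are called intermediate, and 11972 had a ratio of 0.6 or more and are called CpG-rich. The 14194 intermediate and CpG-rich promoters together are called the other promoters. The promoter window in which peaks were counted was TSS ± 1000 bp, 2001 bp in all, and a peak sharing 1 bp with it was an overlap.

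HL-60/S4 is an established human myeloid leukemia line, studied here undifferentiated, in which peaks of the linker histone isotypes H1.2 and H1.5 were obtained with rabbit antibodies. In xChIP, chromatin of formaldehyde-fixed cells was sonicated before it met the antibody. In xxChIP, the antibody entered fixed, permeabilized cells and was held there by another formaldehyde fixation, and sonication followed. The 4 combinations of protocol and isotype had 3 replicates each (12 samples), which compares where H1 is recovered from sheared chromatin with where it can be reached in the fixed nucleus. The authors merged the peaks of the replicates, so each combination is 1 list of positions with no score, height or read number. There is no spread between replicates and the depth is unknown, so no test was made, and every comparison describes these 4 lists. The 95% intervals beside shares are Wilson intervals and cover only the counting error over promoters. They treat promoters as separate, although neighbours can share a peak, so they may be too narrow. The labelled cell type cannot be checked from peak positions.

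Linker histone H1 binds the nucleosome where DNA enters and leaves it and helps to compact the chromatin fibre. Vertebrate promoters fall broadly into those within CpG islands, which serve housekeeping and many developmental genes, and CpG-poor ones, many of which serve genes of particular tissues and more often carry a TATA box. Methylated cytosine in CpG tends to mutate to thymine over evolutionary time, which is the textbook account of the scarcity of CpG outside islands.

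The annotated gene start need not be the start used most. That of ACTB, the gene of cytoplasmic beta actin and a CpG-rich contrast here, lay 33301 bp from the start of the transcript tagged as canonical. Among CpG-poor promoters whose gene has a canonical transcript, 1676 of 5679 (29.5%) had that start more than 1000 bp away, against 1611 of 14090 other promoters (11.4%). These 1676 had xChIP peaks more often than the CpG-poor promoters with the canonical start within 1000 bp. Their shares were 48.4% against 39.3% for H1.2 and 23.9% against 19.3% for H1.5. In xxChIP they were 18.3% against 16.2% for H1.2 and 15.9% against 16.2% for H1.5. Among promoters named below, some gene starts over 1000 bp from the canonical start are marked where named. Those of GNLY, LILRB1, IP6K2, RTF1, CCL26, ZNF658, S100A13, ELANE, CEBPE, FCGR3A, DDX5 and CACNB3 also lay over 1000 bp from it.

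CpG-poor promoters carried xxChIP peaks more than 3 times as often as other promoters, for both isotypes. In xChIP, where promoters of any GC content are pooled, they carried H1.2 peaks somewhat less often than other promoters and H1.5 peaks about as often. The H1.2 direction turned above the lowest quartile of local GC content, in the highest within counting error, and also when long peaks were left out, as given below. The ACTB start is of the kind found in xChIP, with 2001 bp covered in both xChIP lists and 0 bp in xxChIP, and 71.9% of the 50-base words sampled from its window were unique in the genome, so the lack of an xxChIP peak says less.

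In xxChIP H1.2, 989 CpG-poor promoters overlapped a peak, 16.9% (16% to 17.9%), against 8.78% of all protein-coding promoters. The other promoters stood at 5.43%, which gives a ratio of 3.11 (95% interval of counting error 2.85 to 3.40). The CpG-rich promoters stood lower still, at 4.25%, and the intermediate ones between, at 11.8%. In xxChIP H1.5, 950 CpG-poor promoters overlapped a peak, 16.2% (15.3% to 17.2%), against 7.91% of all promoters. Here the other promoters stood at 4.48%, a ratio of 3.62 (3.29 to 3.99), with 3.41% for CpG-rich and 10.3% for intermediate promoters. Both xxChIP ratios depended on how an overlap was counted. They were 1.76 for H1.2 and 2.14 for H1.5 in TSS ± 2500 bp, and 4.88 and 5.50 when at least 50% of the window had to be covered.

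In xChIP H1.2, 2463 CpG-poor promoters overlapped a peak, 42.1% (40.8% to 43.3%), against 48.2% of all promoters and 50.7% of the other promoters. The ratio of CpG-poor to other promoters was 0.830 (0.802 to 0.859), and it turned to 1.04 when peaks of 20 kb or more were left out. Such long peaks covered more of the other promoters, as given with the peak lengths. The xChIP H1.2 ratio was also over 1 in the quartiles above the lowest of local GC content, given below. In xChIP H1.5, 1223 CpG-poor promoters overlapped a peak, 20.9% (19.9% to 22%), close to the 21.6% of all promoters. That ratio, 0.954, had an interval of 0.90 to 1.01, and it was 1.05 in TSS ± 500 bp, 1.17 with at least 50% of the window covered and 1.02 with peaks of at least 2000 bp. No difference between CpG-poor and other promoters can therefore be read from the pooled xChIP H1.5 shares. Within the quartiles of local GC content, given below, CpG-poor promoters had the lower share. In the highest quartile, however, their interval included the share of other promoters. In the lowest quartile of surrounding GC content their share was 18.6% (16.9% to 20.5%), against 17.3%. With the canonical start within 1000 bp, xChIP H1.5 shares were 19.3% (18.1% to 20.6%) for CpG-poor and 21.6% (20.9% to 22.3%) for other promoters.

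As a class, CpG-poor promoters stayed under the level of the genome in xxChIP. Among 1416853 windows of the same length on a fixed grid, 30.1% overlapped an xxChIP peak of H1.2 and 26.8% an xxChIP peak of H1.5. CpG-poor promoters reached 0.562 and 0.606 times those shares, whereas the other promoters reached 0.181 and 0.167 times. In xChIP H1.2, CpG-poor promoters exceeded the grid share of 35.9% by a factor of 1.17, less than the 1.41 of other promoters. In xChIP H1.5 they fell under its 25.7%, at 0.813 times, as did other promoters at 0.852 times.

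Many overlaps took in the whole window of a CpG-poor promoter. xChIP H1.2 peaks wholly covered 1319 of them (22.5%), against 32.2% of other promoters, and xChIP H1.5 peaks 336 (5.74%), near the 5.65% of other promoters. xxChIP H1.2 peaks wholly covered 281 (4.80%), against 1.03% of other promoters. xxChIP H1.5 peaks wholly covered 266 (4.54%), against 0.803%.

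**Figure D1:**
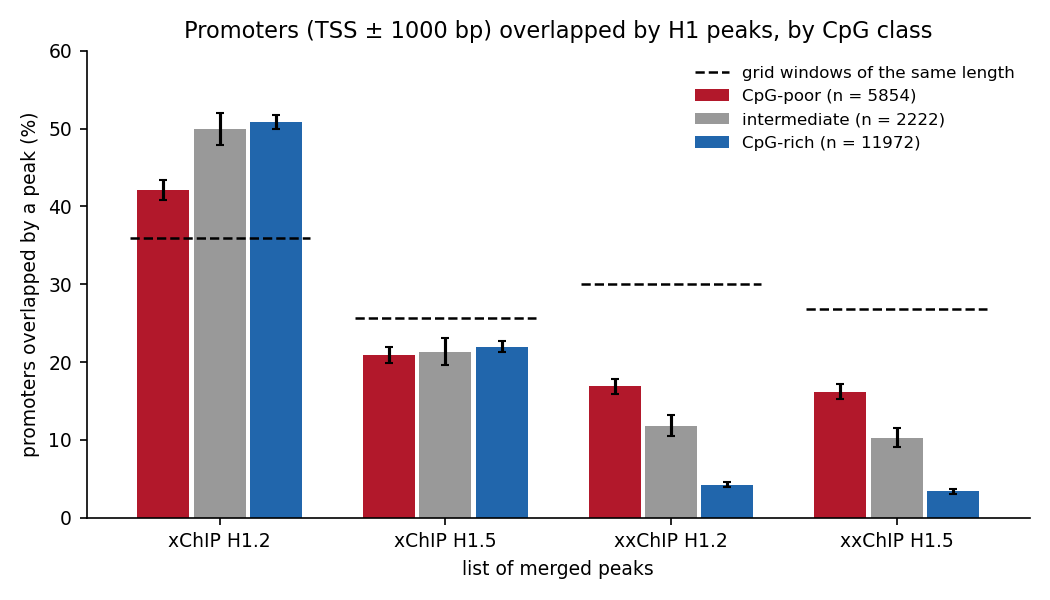
Share of promoters (y axis, percent, from 0) whose TSS ± 1000 bp overlapped a peak in each of the 4 lists, by class of observed/expected CpG ratio, with 95% Wilson intervals as bars. CpG-poor promoters stand highest of the promoter classes in xxChIP, at 16.9% and 16.2%, and lowest in xChIP H1.2, at 42.1%.

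The difference held on each chromosome for xxChIP. CpG-poor promoters had the higher share on 23 of 23 chromosomes for xxChIP H1.2, with a mean difference of 11.2 ± 3.87 percentage points (SD over chromosomes), and on 23 of 23 for xxChIP H1.5, with 11.7 ± 4.19. For xChIP H1.2 they had the lower share on 21, chromosomes 16 and 22 being the exceptions, and for xChIP H1.5 on 15. Chromosomes of a merged list are not replicates of the experiment. The CpG-poor promoters of chromosome 16 had the highest xChIP H1.2 share, 59.3%, together with the lowest xxChIP H1.5 share, 6.64%. On the X chromosome, CpG-poor promoters had the lowest xChIP H1.2 share, 19.7%. Chromosome 6 led in xxChIP H1.2, with 23.3% of its CpG-poor promoters, and chromosome 20 in xxChIP H1.5, with 27.2%.

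Within the class, promoters with the fewest CpG stood farthest from the other promoters. The 92 promoters with a ratio under 0.05 overlapped xxChIP H1.2 peaks in 32.6% of cases (23.9% to 42.7%) and xxChIP H1.5 peaks in 27.2% (19.1% to 37%). Among the 540 promoters with a ratio of 0.35 to 0.4, these shares were 10.0% and 10.6%. For xChIP H1.2 the order was the opposite, from 22.8% (15.4% to 32.4%) in the poorest promoters to 49.8% (45.6% to 54.0%) in those next to the threshold. In xChIP H1.5 the shares over the class ran from 17.4% (11% to 26.4%) in the poorest promoters to 23.8% (21.4% to 26.5%) at ratios of 0.2 to 0.25. The xxChIP shares did not fall on beyond the threshold at once, with 14% (11.2% to 17.4%) for H1.2 and 13.4% (10.6% to 16.7%) for H1.5 at ratios of 0.4 to 0.45.

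**Figure D2:**
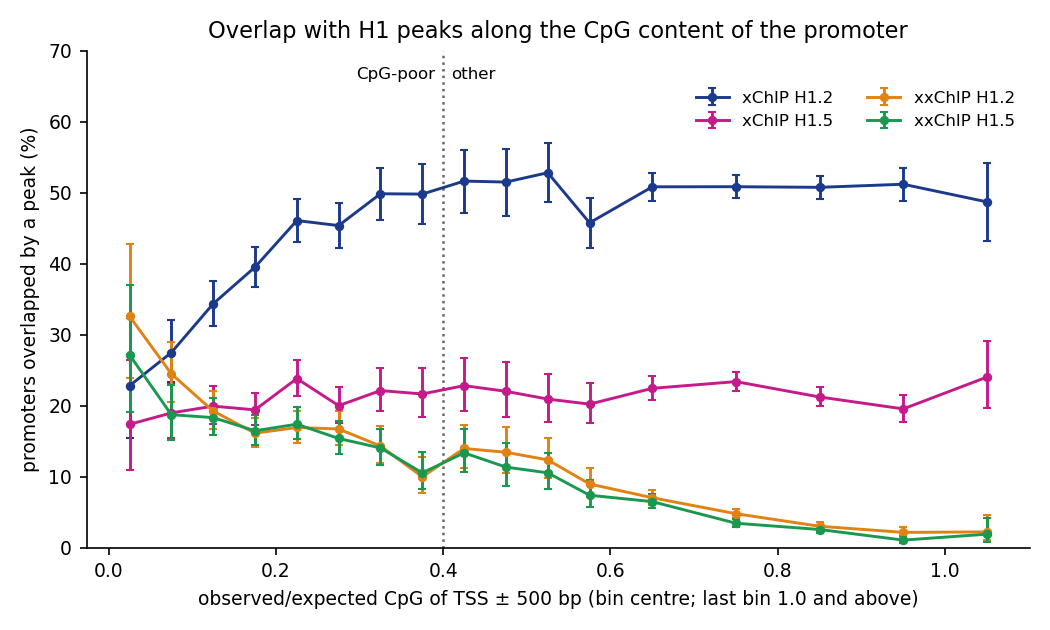
Share of promoters overlapped (y axis, percent) against the observed/expected CpG ratio of TSS ± 500 bp (x axis), for the 4 lists, with 95% Wilson intervals. Over the CpG-poor range, xxChIP H1.2 goes from 32.6% to 10.0% and xChIP H1.2 from 22.8% to 49.8%.

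The 3 promoters nearest to the threshold on either side all had an xChIP H1.2 peak. Just inside lay those of DDX5, an RNA helicase gene, COL16A1, a collagen gene, and S100PBP, with ratios that all round to 0.40. COL16A1 had 1541 bp covered by xChIP H1.2, and S100PBP had 2001 bp covered by xChIP H1.2 and 900 bp by xChIP H1.5. DDX5 had 1114 bp covered by xChIP H1.2 and 49 bp by xxChIP H1.2. Just outside, DENND1C and CACNB3, a calcium channel subunit gene, had 2001 bp covered by xChIP H1.2, and DNASE1L2 had 1630 bp, with 0 bp in the other lists.

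Read by protocol, CpG-poor promoters with a peak had it most often in xChIP alone, but fewer did so than in the other classes. A peak of at least 1 isotype in xChIP and none in xxChIP was found at 2236 CpG-poor promoters, 38.2%, against 48.5% of all promoters and 53.7% of CpG-rich ones. The reverse was found at 831 CpG-poor promoters, 14.2%, against 6.86% of all promoters and 3.08% of CpG-rich ones. Peaks of both protocols lay at 700 CpG-poor promoters (12.0%), against 6.75% of all promoters, 9.45% of intermediate and 3.71% of CpG-rich ones. No list had a peak at 2087 CpG-poor promoters (35.7%) and this share was 35.4% in intermediate and 39.5% in CpG-rich promoters. The count for both protocols moved with the overlap rule, from 215 with at least 50% of the window covered to 1640 in TSS ± 2500 bp, where 2247 had xChIP peaks alone and 974 xxChIP peaks alone.

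Within a protocol, CpG-poor promoters with a peak of 1 isotype had a peak of the other more often than the class did, as CpG-rich promoters also did. Of the 989 CpG-poor promoters with an xxChIP H1.2 peak, 408 (41.3%) also had an xxChIP H1.5 peak, where the class share was 16.2%. In CpG-rich promoters this was 20.4% against a class share of 3.41%, more as a ratio and less in percentage points. The 408 are 42.9% of the 950 with an xxChIP H1.5 peak. In xChIP, 750 CpG-poor promoters had both isotypes, which is 30.5% of those with H1.2 and 61.3% of those with H1.5, beside class shares of 20.9% and 42.1%. CpG-rich promoters had 30.3% and 69.9% here, beside 22% and 50.8%. H1.2 without H1.5 was found at 1713 CpG-poor promoters in xChIP (29.3%, against 35.4% of CpG-rich ones) and H1.5 without H1.2 at 473 (8.08%, against 6.62%). In xxChIP these numbers were 581 (9.92%, against 3.38%) and 542 (9.26%, against 2.54%). Lists of the same protocol may have been called against the same Input samples, which the sources used here do not state.

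Between protocols, peaks of the same isotype met at a CpG-poor promoter about as often as the class share or less. For H1.2, 338 promoters had peaks of both protocols, 34.2% of those with an xxChIP peak, where the class share of xChIP H1.2 was 42.1%, and 13.7% of those with an xChIP peak. For H1.5, 215 did, 22.6% of those with an xxChIP peak, near the class share of 20.9%, and 17.6% of those with an xChIP peak. Of CpG-rich promoters with an xxChIP H1.2 peak, 48.1% had an xChIP H1.2 peak, where their class share was 50.8%. For H1.5 this was 22.8% in CpG-rich promoters, near their class share of 22% and much as in CpG-poor ones. Both xChIP lists wholly covered 166 CpG-poor promoters (2.84%) with no base covered in xxChIP, against 3.39% of all promoters. Both xxChIP lists wholly covered 56 (0.957%) with none in xChIP, against 0.359% of all promoters. CEACAM8, a granulocyte gene described below, is among these 56.

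All 4 lists had a peak at 42 CpG-poor promoters, 0.717%, against 1.4% of intermediate and 0.159% of CpG-rich ones, and 1 was wholly covered in all of them, that of CD5, a surface glycoprotein gene of T cells. Its peaks ran from 6280 bp in xxChIP H1.5 to 8937 bp in xxChIP H1.2, the latter at chr11:60865286-60874222. BSPH1 came next by the smallest coverage over the lists, with 1573 bp in xxChIP H1.2. CRISP1, a gene of epididymal secreted protein, had 1038 bp covered by xChIP H1.2 and 2001 bp in each of the other lists. LGALS9, which encodes galectin-9, had 985 bp in xxChIP H1.5 and 2001 bp in xChIP H1.2. MOBP, a myelin protein gene, had between 847 bp in xChIP H1.5 and 1278 bp in xxChIP H1.5. PRDM7, GABRP, a GABA receptor subunit gene, AL606500.1 and GOLGA6C were also among the 10 promoters with the largest such coverage. Of the sampled 50-base words, 11.7% were unique at GOLGA6C, 35.2% at GABRP and 45.9% at PRDM7, so their coverage says less. The gene starts of GABRP, PRDM7, CRISP1 and LGALS9 lay over 1000 bp from the canonical start.

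Around the TSS, coverage of CpG-poor promoters dipped in all 4 lists, most in xxChIP H1.2. At the TSS itself xChIP H1.2 covered 30.1% of CpG-poor promoters (29% to 31.3%), against 36.5% at 4 to 5 kb on either side, a ratio of 0.825. For xChIP H1.5 it was 11.4% against 17.3%, a ratio of 0.659. xxChIP H1.2 covered 8.37% (7.69% to 9.11%) at the TSS and 15.8% in the flanks, a ratio of 0.530, and xxChIP H1.5 8.63% (7.93% to 9.37%) and 13.9%, a ratio of 0.622. CpG-rich promoters were nearly empty of xxChIP peaks at the TSS, with 0.952% for H1.2 and 0.777% for H1.5, and ratios of 0.0940 and 0.103. CpG-poor promoters therefore kept a larger part of their flanking xxChIP coverage than CpG-rich ones. In xChIP H1.2 the order was the opposite by a small margin, 0.825 against 0.880, and in xChIP H1.5 it was 0.659 against 0.532.

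The dip at CpG-poor promoters reached farther into the gene than away from it in each list. How much farther depended on the flank used, and in xChIP the gap was small against the flank of the same side. Set against the flank of the same side, coverage in xxChIP H1.2 stayed under 90% of its flank level for 1700 bp upstream and 3300 bp downstream, and in xxChIP H1.5 for 1500 bp and 2600 bp. In xChIP H1.2 the dip reached 1100 bp upstream and 1200 bp downstream, and in xChIP H1.5 2100 bp and 2300 bp. Against the mean of both flanks these were 700 bp and 2700 bp in xChIP H1.2 and 1400 bp and 3900 bp in xChIP H1.5. In xxChIP they were then 1400 bp and 4000 bp for H1.2 and 1200 bp and 3300 bp for H1.5. Its lowest point in CpG-poor promoters lay downstream of the TSS in each list, at 300 bp for xChIP H1.2, 100 bp for xChIP H1.5, 600 bp for xxChIP H1.2 and 400 bp for xxChIP H1.5. The upstream flank of CpG-poor promoters was also covered more than the downstream flank, by 38.4% against 34.6% in xChIP H1.2 and by 17% against 14.6% in xxChIP H1.2. In xChIP H1.5 the flanks stood at 18.8% and 15.8%, and in xxChIP H1.5 at 15.0% and 12.7%.

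**Figure D3:**
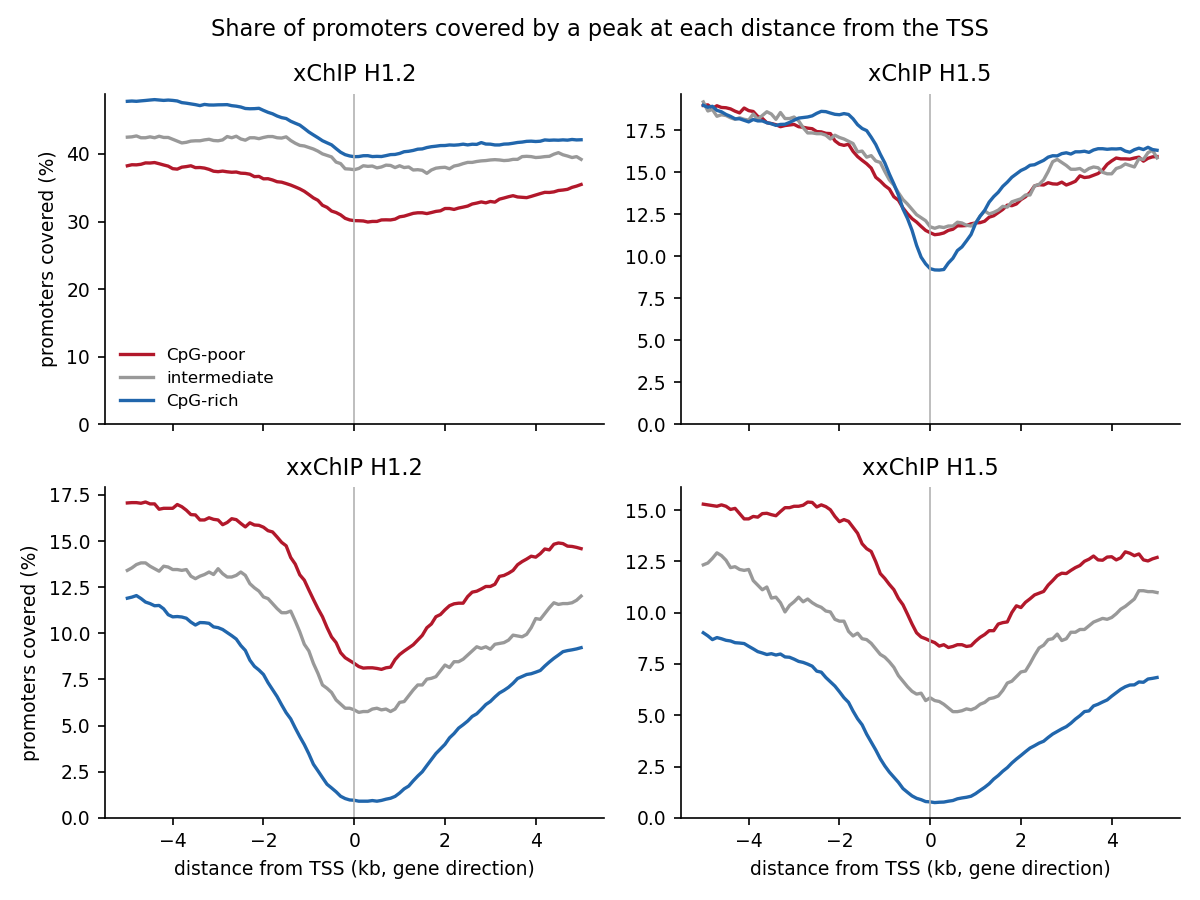
Share of promoters covered by a peak (y axis, percent, each panel from 0 with its own range) against the distance from the TSS on the strand of the gene (x axis), in steps of 100 bp out to 5 kb, for CpG-poor, intermediate and CpG-rich promoters in the 4 lists. In xxChIP H1.2 the CpG-poor line falls to 8.37% at the TSS and the CpG-rich line to 0.952%.

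Base composition moved with these shares. CpG-poor promoters had a median GC content of 47.7% in TSS ± 500 bp, against 62.4% for other promoters, while the 100 kb around them differed little, with 43.6% against 44.4%. In the quartile of lowest surrounding GC content, 17.4% of CpG-poor promoters had an xChIP H1.2 peak, and in the highest 65.5%. For xxChIP H1.2 the shares of CpG-poor promoters went from 23.2% in the lowest quartile to 7.53% in the highest, and for xxChIP H1.5 from 20.5% to 8.21%. CpG-poor promoters had 2.57 to 3.71 times the xxChIP H1.2 share of other promoters within these quartiles, and 2.87 to 4.14 times the xxChIP H1.5 share. Their xChIP H1.2 share was 0.658 times that of other promoters in the lowest quartile and 0.949 times in each of the highest 2. xChIP H1.5 peaks lay at 18.6% of CpG-poor promoters in the lowest quartile and at 23% in the highest. Set against other promoters of the same quartile, the xChIP H1.5 share was 1.07 times as high in the lowest. In the quartiles above it was 0.962, 0.913 and 0.947 times.

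**Figure D4:**
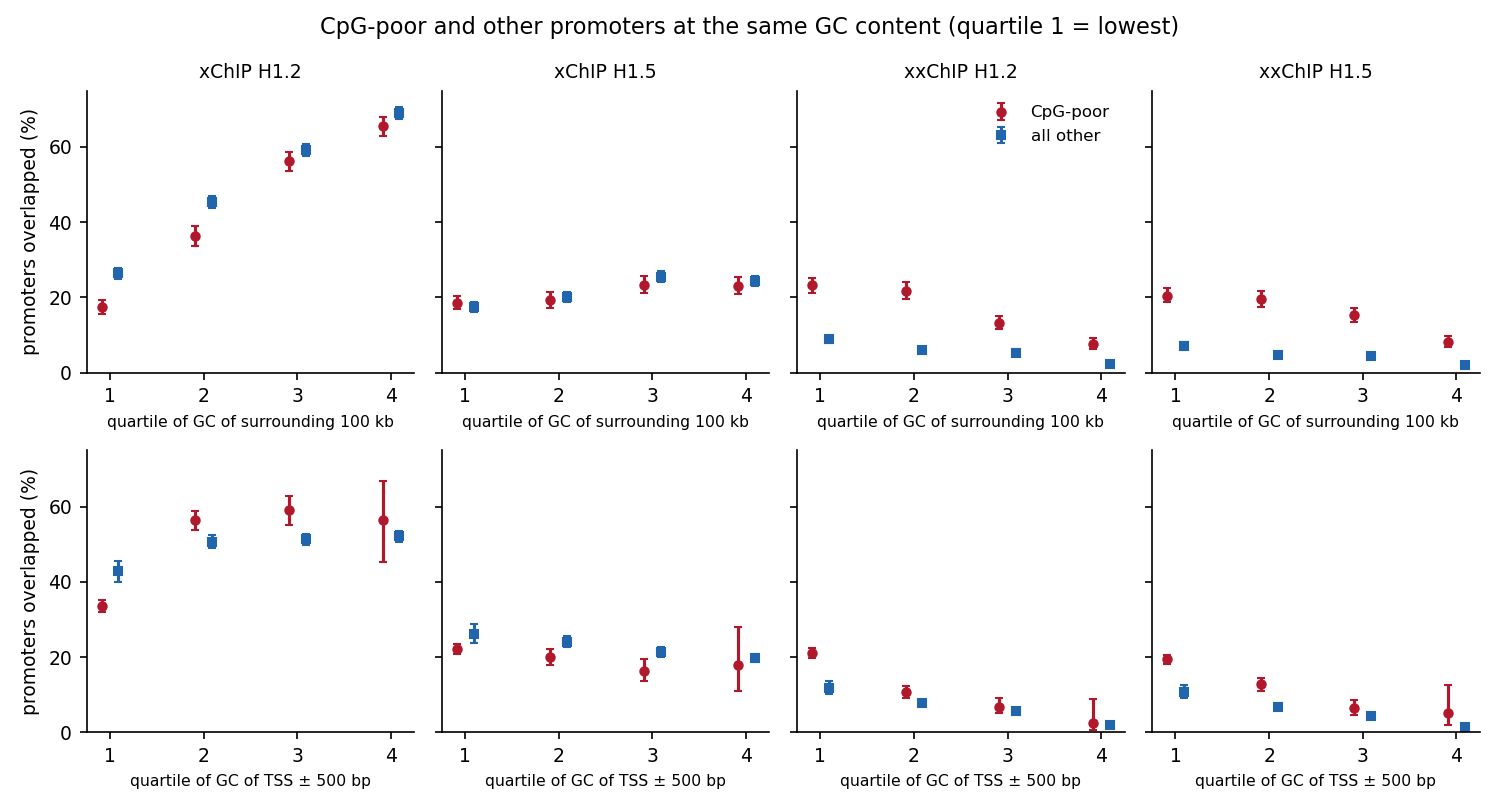
Share of promoters overlapped (y axis, percent) by quartile of GC content (x axis), CpG-poor and other promoters side by side in the 4 lists, with 95% Wilson intervals. The top row uses the GC content of the 100 kb around the TSS, and the bottom row that of TSS ± 500 bp. In the top row CpG-poor promoters go from 17.4% to 65.5% in xChIP H1.2 and from 23.2% to 7.53% in xxChIP H1.2.

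Set beside promoters of the same local GC content, CpG-poor promoters stood apart less in xxChIP over the 3 lower quartiles, and more in xChIP H1.5. In the quartile of lowest GC content of TSS ± 500 bp, which holds 3741 of them, their share was 1.80 times that of other promoters in xxChIP H1.2 and 1.82 times in xxChIP H1.5. In the next quartile, with 1436 CpG-poor promoters, it was 1.39 and 1.87 times, and in the one after, with 599, 1.21 and 1.46 times. In the latter the xxChIP H1.2 share of 6.84% (5.09% to 9.15%) has an interval that includes the 5.67% of other promoters. For xxChIP H1.5 it was 6.34% (4.66% to 8.59%), against 4.34%. The highest quartile held 78 CpG-poor promoters, of which 2 had an xxChIP peak of H1.2 and 4 an xxChIP peak of H1.5. Those 4 are 5.13% (2.01% to 12.5%), against 1.41% of other promoters, a ratio of 3.65 near the pooled one, whereas the ratio for H1.2 was 1.28, under the pooled 3.11. The xxChIP H1.2 share there, 2.56% (0.706% to 8.88%), has an interval that includes the 2.01% of other promoters. In xChIP H1.5, 22% (20.7% to 23.4%) of CpG-poor promoters of the lowest quartile had a peak, against 26.2% (23.8% to 28.7%) of other promoters. That ratio of 0.841 was followed by 0.831, 0.767 and 0.908 in the quartiles above, each farther under 1 than the pooled 0.954. The last rests on 78 CpG-poor promoters, whose share of 17.9% (11% to 27.9%) has an interval that includes the 19.8% of other promoters. For xChIP H1.2 the direction turned, from 0.784 times in the lowest quartile to 1.11, 1.15 and 1.08 times in the others. In the highest, the CpG-poor share of 56.4% (45.4% to 66.9%) has an interval that includes the 52.1% of other promoters. In the lowest quartile of local GC content CpG-poor promoters still had a lower median GC content than other promoters, 42.9% against 48.2%. CpG ratio and GC content therefore move together, and their parts in the pooled ratios were not tested.

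CpG-poor promoters more often held TATAAA, whereas GAGGAAGT did not set them apart from intermediate promoters. The letters TATAAA, sought on both strands in the 100 bases before the TSS, were found at 699 of them (11.9%), against 5.33% of all promoters and 4.10% of intermediate ones. The letters GAGGAAGT, the core of a site of the myeloid factor PU.1, were sought on both strands in TSS ± 500 bp and found at 429 (7.33%), against 6.09% of all promoters and 7.38% of intermediate ones. Matches of these motifs can share at most 1 base, and a match describes the sequence only. The bases searched lie in the window of the rule, and TATAAA holds only A and T. CpG-poor promoters had the lower local GC content, and its part in their TATAAA share was not tested. CpG-poor promoters with TATAAA had an xChIP H1.2 peak in 27.9% of cases, against 44% of those without, and an xxChIP H1.2 peak in 21.9%, against 16.2%. Those with TATAAA lay in sequence with a median surrounding GC content of 41.2%, against 44%, and the part of GC content in this was not tested.

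CpG-poor promoters with xxChIP peaks alone lay in the sequence poorest in GC among the combinations, with a median of 40.6% over the surrounding 100 kb, and 17.1% of them held TATAAA. Those with xChIP peaks alone had a median of 47.3%, and 8.14% of them held TATAAA. They also lay nearer to another protein-coding TSS, at a median of 19416 bp, against 31430 bp for those with xxChIP peaks alone. CpG-poor windows seldom overlapped the window of another protein-coding TSS, at 434 (7.41%), against 25.0% of other promoters. Repeated sequence was more frequent at CpG-poor than at CpG-rich promoters, but not more than at intermediate ones. Of CpG-poor promoters, 995 (17%) had under 90% of their sampled 50-base words unique in the genome, against 18.3% of intermediate and 6.08% of CpG-rich promoters. CpG-poor promoters under this limit had a peak more often than those above it in each list. Their shares were 48% against 40.9% in xChIP H1.2 and 26.6% against 19.7% in xChIP H1.5. In xxChIP they were 19% against 16.5% for H1.2 and 19.1% against 15.6% for H1.5.

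Peaks at CpG-poor promoters were longest in xChIP H1.2. The longest peak at each overlapped CpG-poor promoter had a median of 9864 bp in xChIP H1.2, and 938 (38.1%) were of 20 kb or more, against 50.9% at other promoters. These medians were 3162 bp in xChIP H1.5 and, in xxChIP, 3152 bp for H1.2 and 3035 bp for H1.5. CpG-poor promoters can share a long peak, and the 2463 with an xChIP H1.2 peak lay in 2195 distinct peaks. The longest in xChIP H1.2 had 335781 bp, chr3:195779356-196115136, and took in the promoter of ZDHHC19, a gene of a palmitoyltransferase family. CCL26, the gene of the chemokine eotaxin-3, lay in the next, of 309057 bp, and IP6K2, an inositol hexakisphosphate kinase gene, in a peak of 303279 bp. In xChIP H1.5, a peak of 145707 bp took in RTF1, a gene of transcription elongation. In xxChIP H1.2, a peak of 297000 bp, chr11:54756966-55053965, took in TRIM48. FRG2C lay in the longest xxChIP H1.5 peak at a CpG-poor promoter, of 90730 bp, and also in an xxChIP H1.2 peak of 82160 bp. The vomeronasal receptor gene VN1R5 lay in an xxChIP H1.5 peak of 56689 bp, and WFDC5 in an xxChIP H1.2 peak of 72250 bp.

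Genes of myeloid granules and surface receptors have mostly CpG-poor promoters, and the intervals of their shares, wide for so few promoters, include those of the class. Of 35 CpG-poor promoters of myeloid surface receptors, 20 had an xChIP H1.2 peak, 57.1% (40.9% to 72.0%). An xChIP H1.5 peak was found at 8, an xxChIP H1.2 peak at 3 and a peak of xxChIP H1.5 at 4, where the class had 42.1%, 20.9%, 16.9% and 16.2%. CSF3R, the receptor of granulocyte colony-stimulating factor, and ITGAM, the integrin chain CD11b, had 2001 bp covered by xChIP H1.2 and 0 bp in the other lists. TYROBP, a signalling adaptor gene, and ITGAL had the same pattern. CD14, a lipopolysaccharide co-receptor, had 1542 bp and CD33 1427 bp covered by xChIP H1.2 alone.

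Other receptor promoters differed from this pattern. CXCR2, an interleukin-8 receptor gene, had 2001 bp covered by xChIP H1.2 and 521 bp by xChIP H1.5, whereas CXCR1, the gene of a related receptor, had 1834 bp covered by xChIP H1.5 alone. FCER1G, an Fc receptor chain gene, had 2001 bp in xChIP H1.2 and 1565 bp in xChIP H1.5. CSF2RB, the common beta chain of several cytokine receptors, had 2001 bp covered by xxChIP H1.2 alone, in a peak of 7531 bp. CD68 had 673 bp covered by xxChIP H1.5 alone, and FPR3 had 584 bp by xxChIP H1.2 alone. TLR4, TLR7, TREM1, SELPLG, FCGR1A, FCGR3A, FCGR3B and FPR1 had no peak in any list. Of the sampled 50-base words, 14.8% were unique at FCGR1A, 49.5% at FCGR3A and 60.2% at FCGR3B, and the authors kept unique reads, so the lack of a peak says less there. The gene start of FPR1 lay 52237 bp from its canonical start.

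Azurophil granules are the early granules of neutrophil precursors. Of 13 CpG-poor azurophil granule promoters, 6 had an xChIP H1.2 peak, and 1 had a peak in each of the other lists. That is 46.2% (23.2% to 70.9%) in xChIP H1.2 and 7.69% (1.37% to 33.3%) in each other list. These intervals include the class shares of 42.1% in xChIP H1.2 and 20.9%, 16.9% and 16.2% in the other lists. ELANE and PRTN3, the genes of neutrophil elastase and proteinase 3, were wholly covered by the same xChIP H1.2 peak, chr19:809035-866987, of 57953 bp. SRGN, the gene of the granule proteoglycan serglycin, was also wholly covered by xChIP H1.2 alone. The defensin genes had 425 bp in xChIP H1.2 for DEFA4, 645 bp in xxChIP H1.5 for DEFA1 and 940 bp in xxChIP H1.2 for DEFA3. At DEFA1 9.69% and at DEFA3 36.2% of the sampled words were unique, so the difference between these copies may not be readable. RNASE2, RNASE3 and BPI had no covered base in any list. At RNASE2 77.6% and at RNASE3 76% of the sampled words were unique, so the lack of a peak says less there.

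Of 14 CpG-poor promoters of specific and gelatinase granule proteins, 7 had an xChIP H1.2 peak, 3 an xChIP H1.5 peak, 3 an xxChIP peak of H1.2 and 2 an xxChIP peak of H1.5. The intervals of these shares include those of the class. CEACAM8, an adhesion molecule of granulocytes, was wholly covered in both xxChIP lists and not at all in xChIP. MMP9, the gene of gelatinase B, had 1703 bp covered by xxChIP H1.5, 1026 bp by xChIP H1.5 and 141 bp by xChIP H1.2. HP, the haptoglobin gene, had 1462 bp in xChIP H1.2, 855 bp in xChIP H1.5 and 406 bp in xxChIP H1.2.

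Among CpG-poor promoters of subunits of NADPH oxidase, the enzyme of the respiratory burst, NCF1 was wholly covered in both xChIP lists, but 6.63% of its sampled 50-base words were unique. NCF4 had 122 bp covered by xChIP H1.5, and CYBB had no peak. Of the 6 CpG-poor promoters of myeloid transcription factors, 4 (30% to 90.3%) had an xChIP H1.2 peak, 2 an xChIP H1.5 peak, 1 an xxChIP peak of H1.2 and 0 an xxChIP peak of H1.5, which does not set them apart from the class. SPI1, which encodes PU.1, had 2001 bp covered by xChIP H1.2 and 36 bp by xChIP H1.5. NFE2 was wholly covered in both xChIP lists, CEBPE by xChIP H1.2, and IRF1 had 1366 bp in xChIP H1.2. MEF2C had 603 bp covered by xxChIP H1.2 alone, with 29.6% of its sampled words unique, and RUNX1 had no covered base. The gene starts of MEF2C, IRF1 and RUNX1 lay 21073, 17946 and 955366 bp from their canonical starts.

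Among 17 CpG-poor promoters of S100 genes, which encode small calcium-binding proteins, 7 had an xChIP H1.2 peak, 1 an xChIP H1.5 peak, 2 an xxChIP peak of H1.2 and 2 an xxChIP peak of H1.5, and the intervals of all 4 shares include those of the class. S100A8 and S100A9, whose products form calprotectin, had no covered base in any list. S100A12, which lies between them, had 1472 bp covered by xxChIP H1.2 alone, in a peak of 9040 bp. S100A14 and S100P had 2001 bp covered by xChIP H1.2 alone. S100A13 had 2001 bp in xChIP H1.2, 525 bp in xxChIP H1.2 and 7 bp in xChIP H1.5, the only xChIP H1.5 overlap of these genes. S100A16 had 675 bp in xChIP H1.2 and 713 bp in xxChIP H1.5.

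Among sensory and epidermal gene families, best known for expression outside the blood, olfactory receptors and epidermal barrier genes stood above the class shares in both xxChIP lists, whereas keratins, keratin-associated proteins and beta-defensins did so in 1 of them. Of 401 CpG-poor olfactory receptor promoters, 24.7% (20.7% to 29.1%) had an xxChIP peak of H1.2 and 24.9% (21.0% to 29.4%) an xxChIP peak of H1.5, above the class shares of 16.9% and 16.2%. Their xChIP H1.2 share was 17% (13.6% to 20.9%), under the 42.1% of the class, and their xChIP H1.5 share 19.7%. OR4M1 had 2001 bp covered in xChIP H1.5 and in both xxChIP lists. Of 23 CpG-poor promoters of type 2 taste receptors, which sense bitter compounds, 6 had an xxChIP H1.2 peak, 6 an xxChIP H1.5 peak, 2 an xChIP H1.5 peak and 1 an xChIP H1.2 peak. Each 6 is 26.1% (12.5% to 46.5%), which includes the class shares. TAS2R41 was wholly covered in both xxChIP lists and not in xChIP. Of 3 CpG-poor vomeronasal receptor promoters, 2 had peaks of both xxChIP isotypes, VN1R5 and VN1R2, 1 had an xChIP H1.2 peak and none an xChIP H1.5 peak. Their share of 66.7% (20.8% to 93.9%) in each xxChIP list is also above the class, but all 3 had under 90% of their sampled words unique. The olfactory receptors lay in sequence with a median surrounding GC content of 37.9%, within the lowest quartile. All CpG-poor promoters of that quartile had 23.2% in xxChIP H1.2 and 17.4% in xChIP H1.2, within the intervals of the receptors, and 20.5% in xxChIP H1.5, just under theirs. The part of GC content in the shares of the receptors was not tested.

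All 38 promoters of epidermal barrier genes, which build the cornified layer of skin, were CpG-poor. Of these, 12 (31.6%, 19.1% to 47.5%) had an xxChIP peak of H1.2 and 11 (28.9%, 17% to 44.8%) an xxChIP peak of H1.5. An xChIP H1.2 peak was found at 3 and an xChIP H1.5 peak at 5. SPRR1A and SPRR2B, genes of small proline-rich proteins, were wholly covered in both xxChIP lists and not in xChIP. The peaks at SPRR2B had 33993 bp in xxChIP H1.2 and 48690 bp in xxChIP H1.5. Neighbouring genes of a family can share such a peak. Distinct peaks per family were not counted, so the intervals of families may be too narrow. LCE1C had 1954 bp covered by xxChIP H1.2 and 1925 bp by xxChIP H1.5. Of 88 CpG-poor promoters of keratin-associated proteins, which belong to hair, 27.3% (19.1% to 37.4%) had an xxChIP peak of H1.2 and 19.3% (12.4% to 28.8%) an xxChIP peak of H1.5, the latter interval including the class share, 21.6% an xChIP peak of H1.2 and 6.82% an xChIP peak of H1.5. Among 48 CpG-poor keratin promoters, 29.2% (18.2% to 43.2%) had an xxChIP H1.5 peak and 16.7% an xxChIP H1.2 peak, the latter at the class share, 31.2% an xChIP peak of H1.2 and 4.17% an xChIP peak of H1.5. KRT6C was wholly covered in both xxChIP lists and not in xChIP, but 60.7% of its sampled words were unique, so the lack of an xChIP peak says less. Of the 40 beta-defensin promoters, all CpG-poor, 13 (32.5%, 20.1% to 48.0%) had an xxChIP H1.5 peak, 8 (20%, 10.5% to 34.8%) an xxChIP H1.2 peak, the latter interval including the class share, 5 an xChIP peak of H1.2 and 3 an xChIP peak of H1.5, and DEFB127 and DEFB116 were wholly covered in both xxChIP lists alone. In xChIP H1.2, the whole intervals of taste receptors (to 21%), epidermal barrier genes (to 20.8%), beta-defensins (to 26.1%) and keratin-associated proteins (to 31.3%) lay under the 42.1% of the class. In xChIP H1.5, keratins (1.15% to 14%), keratin-associated proteins (3.16% to 14.1%) and beta-defensins (2.58% to 19.9%) stood under the 20.9% of the class with their whole intervals. Median surrounding GC content was 36.7% for taste receptors, 41.0% for epidermal barrier genes, 39.7% for keratin-associated proteins and 41.9% for beta-defensins. For the keratins it was 47.5%, against 43.6% for the class, and the part of GC content in these shares was not tested. Taste receptors and keratin-associated proteins thus had medians in the lowest quartile. All CpG-poor promoters of that quartile had 17.4% in xChIP H1.2, within the intervals of both families. Their 23.2% in xxChIP H1.2 lay within the interval of keratin-associated proteins. Epidermal barrier genes and beta-defensins had medians in the next quartile, with 21.8% in xxChIP H1.2, 19.6% in xxChIP H1.5 and 36.3% in xChIP H1.2. The xxChIP values lay within the intervals of epidermal barrier genes. For beta-defensins, 19.6% was just under the xxChIP H1.5 interval. The 36.3% lay above the xChIP H1.2 intervals of both. All CpG-poor promoters of the quartile of the keratins had 15.3% in xxChIP H1.5, under the interval of the keratins. Under 90% of the sampled words were unique at 19 of the beta-defensin promoters and at 34 of those of keratin-associated proteins.

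**Figure D5:**
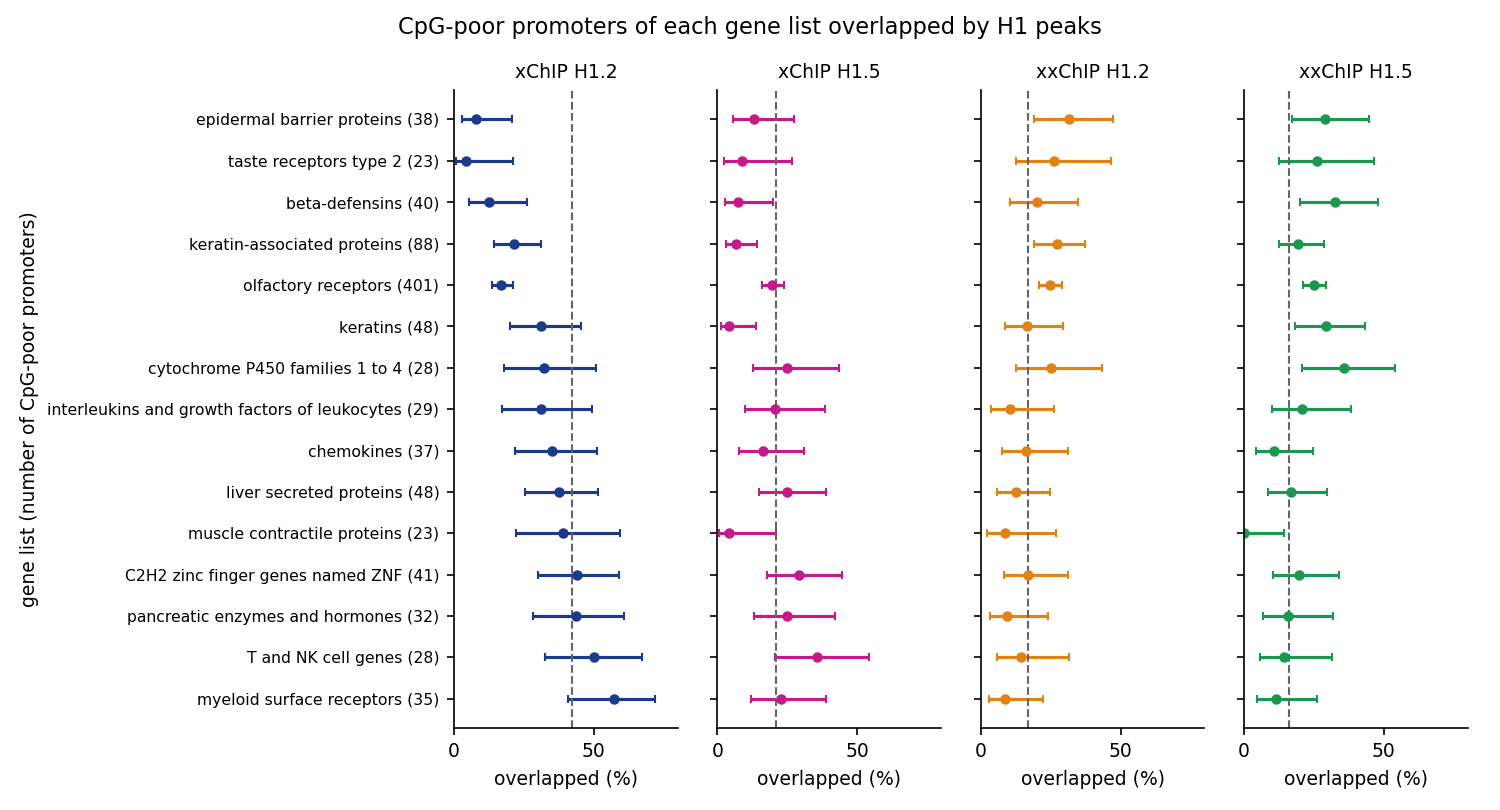
Share of CpG-poor promoters overlapped (x axis, percent) for gene lists with at least 20 CpG-poor promoters, in the 4 lists of peaks, with 95% Wilson intervals, and a dashed line at the share over all CpG-poor promoters. Epidermal barrier genes have 7.89% in xChIP H1.2 and 31.6% in xxChIP H1.2, and myeloid surface receptors 57.1% and 8.57%.

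For genes of other blood cells, the intervals of all shares included those of the class, 42.1% and 20.9% in xChIP and 16.9% and 16.2% in xxChIP for H1.2 and H1.5. Of 28 CpG-poor promoters of T and NK cell genes, 14 had an xChIP H1.2 peak, 10 (35.7%, 20.7% to 54.2%) an xChIP H1.5 peak, 4 an xxChIP peak of H1.2 and 4 an xxChIP peak of H1.5. GNLY, the granulysin gene, had 2001 bp in xChIP H1.2 and in both xxChIP lists, and CD28, a T cell co-receptor, had 1739 bp in xChIP H1.2, 1643 bp in xChIP H1.5 and 1712 bp in xxChIP H1.2. Of 13 CpG-poor B cell gene promoters, 6 and 2 had a peak of H1.2 and of H1.5 in xChIP, and 1 and 3 in xxChIP, and FCRL1 was wholly covered in both xxChIP lists alone. In the same order, 5, 1, 1 and 3 of 16 erythroid promoters did, and SLC4A1, the gene of the red cell anion exchanger, was wholly covered by xChIP H1.2 alone. Of 9 platelet gene promoters, 4, 3, 2 and 0 did, and GP6, a collagen receptor gene, was wholly covered in both xChIP lists.

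Among 29 CpG-poor promoters of interleukins and leukocyte growth factors, 9 had an xChIP H1.2 peak, 6 an xChIP H1.5 peak, 3 an xxChIP peak of H1.2 and 6 an xxChIP peak of H1.5. The first is 31% (17.3% to 49.2%), and the intervals of all 4 shares include those of the class, as they do for the chemokines below. IFNG, the gene of interferon gamma, had 2001 bp covered in both xxChIP lists and 323 bp in xChIP H1.2. IL1RN, which encodes the interleukin-1 receptor antagonist, was wholly covered in both xChIP lists alone. At IL1RN 68.4% of the sampled words were unique, and its gene start lay 28283 bp from the canonical start. Of 37 chemokine promoters, 13 and 6 had a peak of H1.2 and of H1.5 in xChIP, and 6 and 4 in xxChIP, and CCL24 and CCL26 were wholly covered in both xChIP lists. The gene starts of CCL24 and CCL26 lay 9550 and 17685 bp from their canonical starts. Of 17 type I interferon promoters 0, 3, 1 and 3 had a peak in the same order, the first (0% to 18.4%) under the 42.1% of the class. Their median surrounding GC content was 38.1%, and 8 had under 90% of their sampled words unique. All CpG-poor promoters of the lowest quartile of surrounding GC content had 17.4% in xChIP H1.2, within this interval. The part of GC content and of repeated sequence was not tested. IFNB1 was wholly covered by xChIP H1.5 alone. Leukocyte receptor families gave 6, 0, 1 and 1 of 15 for SIGLEC genes, the second (0% to 20.4%) just under the 20.9% of the class, 3, 1, 2 and 3 of 10 for leukocyte immunoglobulin-like receptors and 5, 3, 2 and 2 of 15 for MS4A genes. All other intervals of these families include the class shares. Of the 15 SIGLEC promoters, 6 had under 90% of their sampled words unique. LILRB1 and MS4A8 were each wholly covered in both xxChIP lists and not in xChIP.

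Genes of liver, pancreas and muscle also have mainly CpG-poor promoters, and most of their shares had intervals that included those of the class. Of 48 CpG-poor promoters of liver secreted proteins, 18 had an xChIP H1.2 peak, 12 an xChIP H1.5 peak, 6 an xxChIP peak of H1.2 and 8 an xxChIP peak of H1.5, and APOC2, APOA2 and F7, the gene of coagulation factor VII, were wholly covered in both xChIP lists alone. Of 32 promoters of pancreatic enzymes and hormones, 14, 8, 3 and 5 had a peak in the same order, with CLPS, the colipase gene, wholly covered in both xChIP lists. Of 23 muscle contractile promoters, 9, 1, 2 and 0 did, the last (0% to 14.3%) under the 16.2% of the class, and MYH7, a cardiac and slow muscle myosin gene, was wholly covered by xxChIP H1.2 alone. Of 28 promoters of cytochrome P450 families, 9, 7, 7 and 10 did, the last a share of 35.7% (20.7% to 54.2%), above the 16.2% of the class, and CYP2C18 had 2001 bp in xxChIP H1.2 and 1336 bp in xxChIP H1.5. UDP glucuronosyltransferases had 1, 3, 2 and 4 of 19, the first 5.26% (0.935% to 24.6%) under the 42.1% of the class. UGT2B17 had 2001 bp in xxChIP H1.2. Median surrounding GC content was 51.1% for the muscle promoters and 38.4% for the UDP glucuronosyltransferases. All CpG-poor promoters of these quartiles, the highest and the lowest, had 8.21% in xxChIP H1.5 and 17.4% in xChIP H1.2, within the intervals given. Under 90% of the sampled words were unique at 10 of the cytochrome P450 promoters and at 9 of the UDP glucuronosyltransferases. The part of GC content and of repeated sequence was not tested.

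Few housekeeping promoters were CpG-poor. None of 58 core histone promoters were, and 3 of 77 cytosolic ribosomal protein promoters, those of RPL39L, RPL4 and RPL36, whose gene starts all lay over 1000 bp from the canonical start. All 3 had an xChIP H1.2 peak (43.9% to 100%, class 42.1%), 2 an xChIP H1.5 peak (20.8% to 93.9%, class 20.9%), 1 an xxChIP peak of H1.2 and 0 an xxChIP peak of H1.5, too few to compare with the class. Of 508 ZNF promoters, 41 were CpG-poor, and 18 of these had an xChIP H1.2 peak, 12 an xChIP H1.5 peak, 7 an xxChIP peak of H1.2 and 8 an xxChIP peak of H1.5, and the intervals of all 4 shares include those of the class. ZNF658 had 2001 bp in xChIP H1.5 and xxChIP H1.2 and 1741 bp in xxChIP H1.5, but 7.65% of its sampled words were unique.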

How the data were processed

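H1.2 and H1.5 were measured by xChIP-seq and xxChIP-seq, and samples were grouped by protocol and antibody from their labels. The deposited lists hold the start and end position of each peak, in bp, and no other value. For them the authors mapped read pairs with Bowtie2 on hg19, allowed few mismatches, kept unique reads, called peaks per replicate with MUSIC at default settings, and merged the 3 replicates of each combination. Versions, and whether Input samples entered the calling, are not given in the sources used here. The 6 Input samples were not used, and the depth per sample is unknown.

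Genes were those of GENCODE release 44 lifted to GRCh37. Overlap was counted from 1 shared bp in TSS ± 1000 bp, and profiles in steps of 100 bp out to 5 kb, with flanks of 4 to 5 kb. Uniqueness was read from words of 50 bases taken every 10 bases. Grid windows held no unknown base. Intervals of share ratios were computed on the log scale from counting error. Counting steps were tested on simulated data. Python 3.11.15, numpy 2.4.6, numba 0.67.0 and matplotlib 3.10.9 were used.

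The alternatives changed the CpG threshold and window, the overlap rule, the peak lengths, the promoter set, the start site and the chromosomes. Named were the CpG-poor members of the azurophil, myeloid receptor, NADPH oxidase, S100 and myeloid transcription factor lists, the 10 promoters with the largest smallest coverage over the 4 lists, the 3 in the longest peaks of each list, the 3 on either side of the threshold, and up to 3 per other list, of 31 gene lists, with the largest summed coverage. Some members that these rules select, and the sequences of promoters, are not reported here. The members and lists were chosen with earlier results of these data known. Over 31 gene lists and 4 lists of peaks, some intervals can miss the class share by counting error alone.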

Additional observations from a re-analysis of the deposited data

How the results depend on the processing

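Of 164 values over 11 alternatives and 16 results, 128 moved by less than their counting interval or, for counts, stayed within 1.5 times. The others follow, and the cause was not tested. Ratios are shares of CpG-poor to other promoters, xChIP before xxChIP and H1.2 before H1.5 unless named. With TSS ± 500 bp they were 0.793, 1.05, 4.05 and 4.75, with 659 CpG-poor promoters overlapped in xxChIP H1.2 and 401 in both protocols. With TSS ± 2500 bp they were 0.869 for xChIP H1.2, 1.76 and 2.14 in xxChIP, with 2033 promoters overlapped in xChIP H1.5 and 1794 and 1748 in xxChIP, 1640 in both protocols and 993 in no list. With at least 50% of the window covered they were 0.769, 1.17, 4.88 and 5.50, with 671, 491 and 506 promoters in the last 3 lists, 215 in both protocols and 3181 in none. With peaks of at least 2000 bp the ratios of the last 3 lists were 1.02, 3.48 and 4.16, 314 promoters had both protocols, and the TSS to flank ratio of xxChIP H1.5 was 0.699. Without peaks of 20 kb or more the xChIP H1.2 ratio turned to 1.04, its count fell to 1533 and its TSS to flank ratio was 0.744. Windows that overlap no other gave 2.80 and 3.26 in xxChIP, and unique windows 3.99 in xxChIP H1.5. For xChIP H1.2, a threshold of 0.3 gave 0.789 and canonical starts 0.800. The alternatives of overlap window and covered share do not apply to the TSS to flank ratios and were not run for them. No paired analysis was possible because the lists are merged and carry no replicate, and replicates could not be left out for the same reason.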
